A study of Mus musculus with 2 samples.

Results

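The enzymes of haem synthesis were followed in RNA of mouse bone marrow cells that the labels call megakaryocytes, the cells that shed platelets. The members were 8 genes given by name, Alas1, Alas2, Alad, Uros, Urod, Cpox, Ppox and Fech, and each was found by gene ID among 43346 mouse genes in the deposited tables. They do not cover every step of the pathway. The material was total RNA depleted of ribosomal RNA, made into 2 libraries from 100 ng each with a ScriptSeq kit. Their listed size ranges shared an upper bound of 1000 bases. The lower bound differed, at 221 bases in library 1 against 200 bases in library 2. Any effect of this difference on lengths or transcript shares was not tested. Primary cells were taken from C57BL/6J mice, adult males of 5 to 6 weeks, and the labels give no treatment or allele. The isolation protocol, known by its title alone, covers erythroid cells as well as megakaryocytes. Both libraries belong to a single group, as biological replicates 1 and 2 that share a donor entry. No other condition was measured, so the comparisons run between genes and between the libraries. Separate animals are not stated, so p-values measure only the difference between these samples, which may be technical.

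Haem is the iron-holding ring of haemoglobin, of the cytochromes and of enzymes such as myeloperoxidase and catalase. Its synthesis starts in the mitochondrion, where 5-aminolevulinate synthase joins glycine to succinyl-CoA, passes through the cytosol, and returns to the mitochondrion for the last steps. The first enzyme has a pair of genes: Alas1 is used by nearly all cells and is held down by haem, while the X-linked Alas2 is used by red cell precursors, which make haem for haemoglobin. Alas2 is driven by erythroid factors such as Gata1, and its messenger RNA carries an iron-responsive element that lets iron supply set its translation.

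The sequences that set the paralogues apart were read from the reference on mm10 (GRCm38). The iron-responsive element was searched as a C, 5 bases, CAGTGN and 5 bases able to pair with the first 5. It was found in 2 of 69 annotated member transcripts, Alas2-201 and Alas2-202, and not in the shorter Alas2-203 and Alas2-204. Its place is the first exon of Alas2-201, at chrX:150547462-150547483 on the plus strand, with the loop letters of the pattern in capitals.
Alas2 iron-responsive element: ttcgtcctCAGTGCagggcaac

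Upstream of that exon, the Alas2 promoter (RefSeq, GRCm38.p6, chrX:150547167-150547374, plus strand) holds 1 match to AGATAA, a letter string of the kind bound by GATA factors. It lies on the minus strand and is given in capitals. The Cpox promoter (chr16:58669958-58670207, plus strand) is shown beside it because the Cpox window matched both AGATAA and TGATAA; the bases shown hold 1 match to TGATAA, on the minus strand.
Alas2 promoter: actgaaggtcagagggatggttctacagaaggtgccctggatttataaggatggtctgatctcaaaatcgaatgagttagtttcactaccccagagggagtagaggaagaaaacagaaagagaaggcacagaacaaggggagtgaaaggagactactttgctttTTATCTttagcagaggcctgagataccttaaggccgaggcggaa
Cpox promoter: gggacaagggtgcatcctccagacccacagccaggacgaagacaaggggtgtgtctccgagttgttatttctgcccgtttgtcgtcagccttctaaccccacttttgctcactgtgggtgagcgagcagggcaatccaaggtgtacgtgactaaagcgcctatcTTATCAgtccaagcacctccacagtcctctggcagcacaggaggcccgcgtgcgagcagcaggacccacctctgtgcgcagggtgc

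AGATAA or TGATAA, read on both strands, stood in 18.6% of 32851 promoter windows reaching from 250 bases before to 50 after a gene's start. Among the 10 windows of 7 members, 3 had a match, for Alas2, Cpox and Uros. AGATAA alone stood in 11.2% of all windows, and TGATAA alone in 9.05%. CGCATGCG, the core of the string bound by the factor NRF1 and its own reverse complement, stood in 1.87% of all windows and in both windows of Alas1. The 30 bases around it lie in the first exon of Alas1-207 at chr9:106247906-106247935 on the minus strand, with the match in capitals.
Alas1 site: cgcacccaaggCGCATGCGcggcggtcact

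CCACACCC, a string bound by Klf1, was found in none of the 10 member windows, beside 3.56% of all windows. At that share, 10 windows are too few to show a lack. Fech had no window and was not searched for these strings. A match is a string of letters and not a measured binding site.

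Alas1 was the highest member and Alas2 the lowest, in both libraries. Levels are given in TPM, a share of all transcripts that corrects for length, with expected counts, the estimated reads per gene, beside them. Alas1 (chromosome 9, 106233455 to 106248654) stood at 17.4 TPM in library 1 and 18.5 TPM in library 2, from 3075 and 3986 counts. Alas2 (chromosome X, 150547375 to 150570638) stood at 1.23 TPM in library 1 and 0.13 TPM in library 2. Its 93 counts in library 1 have an exact Poisson 95% interval of 75.1 to 114, and its 26 counts in library 2 one of 17.0 to 38.1. Alas1 was close between the libraries, while the intervals of the Alas2 counts did not overlap. In bulk RNA, fewer cells of a type and less RNA per cell cannot be told apart.

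The enzymes of the cytosol came next in the pathway. Alad, which joins 5-aminolevulinate molecules into porphobilinogen (chromosome 4, 62509169 to 62519918), stood at 2.28 TPM in library 1 and 1.4 TPM in library 2, from 230 and 195 counts. Uros, which closes the ring as uroporphyrinogen III (chromosome 7, 133686243 to 133710072), stood at 3.25 and 2.75 TPM, from 519 and 442 counts. Urod, which removes carboxyl groups from that ring (chromosome 4, 116989965 to 116994413), stood at 11.5 and 8.79 TPM, from 1093 and 1079 counts. Each of these was lower in library 2 by TPM, and Urod was the second highest member of all 8 in both libraries. The deposited interval for Urod, of unstated level, ran from 10.9 to 16.3 TPM in library 1 and from 8.53 to 14.7 TPM in library 2, so these intervals overlapped.

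The mitochondrial end of the pathway lay in a narrow band. Cpox, coproporphyrinogen oxidase (chromosome 16, 58670292 to 58717636), stood at 5.7 TPM in library 1 and 4.38 TPM in library 2, from 1691 and 1473 counts. Ppox, protoporphyrinogen oxidase (chromosome 1, 171275990 to 171281186), stood at 4.48 and 3.98 TPM, from 717 and 913 counts. Fech, ferrochelatase, which inserts the iron (chromosome 18, 64452914 to 64490251), stood at 4.48 and 4.21 TPM, from 1201 and 1278 counts. All 3 lay between 3.98 and 5.7 TPM, well under Alas1 in each library.

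By mean TPM over the libraries (± SD, n = 2), the order was Alas1 at 17.9 ± 0.771, Urod at 10.2 ± 1.94, Cpox at 5.04 ± 0.933, Fech at 4.34 ± 0.191, Ppox at 4.23 ± 0.354, Uros at 3.0 ± 0.354, Alad at 1.84 ± 0.622 and Alas2 at 0.68 ± 0.778. Neighbours in this order whose library values overlapped were Cpox with Fech and Fech with Ppox; the other neighbours did not overlap. The median over the 8 members was 4.29 TPM, against 5.35 TPM over the 11582 nuclear protein-coding genes that averaged at least 0.1 TPM, and 0.28 TPM over all 21461. Among all of these 21461 genes, Alas1 stood at percentile 89.0 and Alas2 at percentile 54.0, with the other members from 60.7 for Alad to 82.3 for Urod. Alas1 and Urod stood above the median of the expressed genes, and the other 6 below it.

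**Figure D1:**
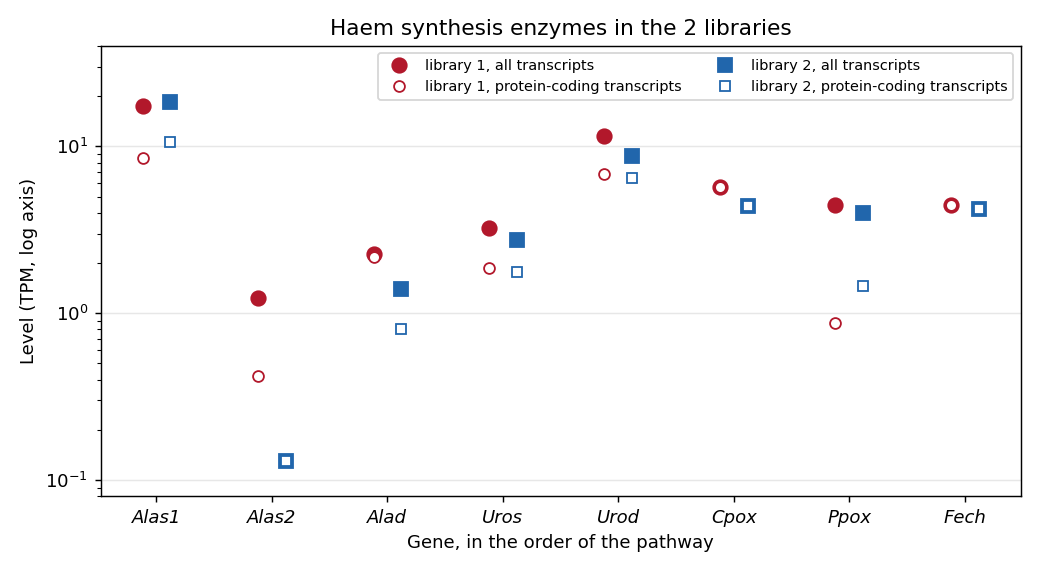
Level of each haem synthesis enzyme in TPM (log axis) in library 1 (circles) and library 2 (squares), with all transcripts as filled symbols and protein-coding transcripts as open symbols. Alas1 is the highest at 17.4 and 18.5 TPM, and Alas2 the lowest at 1.23 and 0.13 TPM.

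Alas1 exceeded Alas2 in both libraries, by an amount that depended on the library. Per effective length, Alas1 over Alas2 was 14.1 in library 1 (exact 95% interval 11.5 to 17.6) and 146 in library 2 (99.3 to 223). The ratio of deposited TPM was 14.1 in library 1 and 142 in library 2. Without length correction the counts gave 33.1 in library 1 (26.9 to 41.1) and 153 in library 2 (104 to 235). The intervals of the libraries did not overlap on either scale. They hold counting error only, because each comes from the counts of 1 library, and effective lengths were taken as fixed. Nor were molecular identifiers used to tell reads of 1 molecule apart.

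Set against each other as counts, Alas1 over Alas2 in library 1 was 0.216 of that in library 2 (two-sided Fisher's exact test p = 3.71e-14, no replicate of either library). This ratio within a library needs no scaling between libraries. With counts of protein-coding transcripts, 1803 of Alas1 and 70 of Alas2 in library 1 and 2655 and 26 in library 2, it was 0.252 (Fisher's exact test p = 2.99e-10). Scaled to library size, Alas1 in library 1 was 0.911 of its count in library 2, and Alas2 was 4.17-fold higher in library 1.

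**Figure D2:**
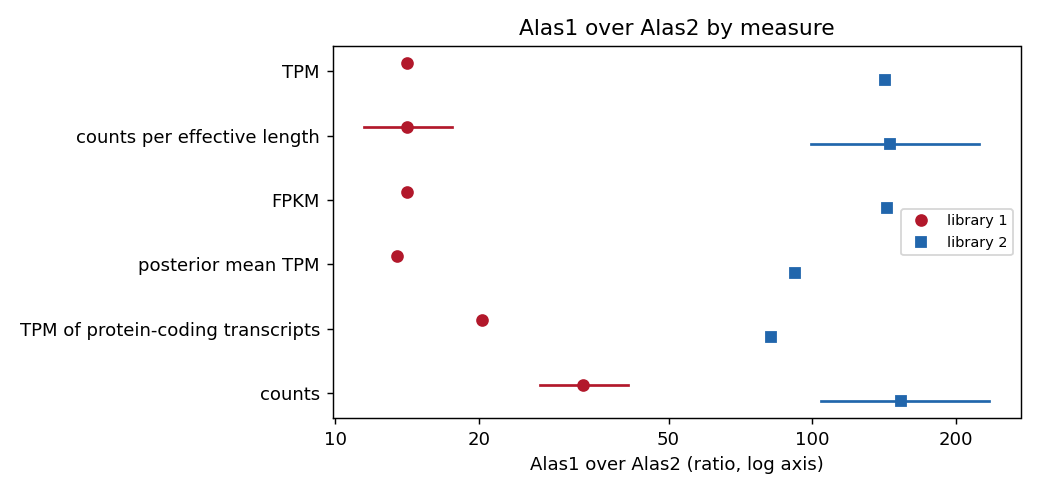
Alas1 over Alas2 (ratio, log axis) by 6 measures in library 1 (circles) and library 2 (squares), with bars for exact 95% counting intervals where counts allow one. Library 1 lies between 13.5 and 33.1 and library 2 between 82.2 and 153.

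The TPM of Alas2 made the libraries look further apart than the counts did. By TPM, Alas2 was 9.46-fold higher in library 1 than in library 2, which is more than the ratio of scaled counts. The effective length of Alas2, an average over its transcripts weighted by their share, was 755 bases in library 1 and 1801 bases in library 2. A change of 1.5-fold or more in effective length between the libraries occurred in 6.7% of 12081 nuclear protein-coding genes above 0 TPM in both. For the other members the effective length in library 2 was between 0.883 (Uros) and 1.26 (Ppox) times that in library 1.

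The transcripts to which Alas2 reads were assigned also differed. In library 1, the retained-intron transcript Alas2-203 held 49.5% of the Alas2 TPM from 16 counts. The coding Alas2-202 held 29.1% from 59.7 counts and the full-length coding Alas2-201 held 4.5% from 10.1 counts. In library 2, all 26 counts were given to Alas2-201, with 100% of the TPM. Coding transcripts, both of which carry the iron-responsive element shown above, held 34.1% of the Alas2 TPM in library 1. These shares rest on few reads, and by the deposited posterior mean Alas2-201 held 6.37% in library 1 and 53.8% in library 2.

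Alas2 also shares sequence with a gene on the other strand. Of 2403 exonic bases of Alas2, 311 (12.9%) lie under exons of Apex2, a DNA repair endonuclease gene on the opposite strand with 356 counts in library 1 and 470 in library 2. Whether the counting used strand is not given in the sources used here. It is therefore not known whether reads in that stretch were told apart by gene. Ppox shares 17.5% of its exonic bases with B4galt3 on the opposite strand, Alas1 7.53% with an antisense gene of 0 and 11 counts and Cpox 3.06% with Gpr15. No such overlap was found for Alad, Uros, Urod and Fech.

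Transcripts annotated as noncoding held a large share of several members. The coding share of Ppox was 19.4% of its TPM in library 1 and 36.4% in library 2, the lowest among members with 1 TPM or more in both libraries. These summed shares come from rounded TPM and can differ in the last digit from the deposited share of a transcript. The retained-intron transcript Ppox-202 led library 1 with 51.5%, against 22.3% in library 2. The coding Ppox-201 held 17.4% in library 1 and 36.5% in library 2, and the retained-intron Ppox-206 held 10.2% and 25.6%. In both libraries, therefore, most Ppox TPM lay on transcripts annotated as retained introns. By expected counts the leading transcript differed. Ppox-202 had 98.6 and 41.9 counts, at effective lengths of 427 and 415 bases. The retained-intron Ppox-207, outside the naming rule at 19.0% and 14.8% of the TPM, led library 1 with 357 counts (49.8% of the gene). Ppox-206 led library 2 with 327 counts (35.8%).

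Alas1 was divided among 3 main transcripts. The coding Alas1-201 held 35.8% in library 1 and 35.9% in library 2, and the noncoding Alas1-206 held 39.2% and 35.5%. The coding Alas1-207, whose first exon holds the site shown above, held 12.9% and 20.3%. The summed coding share of Alas1 was 49.2% in library 1 and 57.9% in library 2.

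Alad changed its leading transcript between the libraries. The coding Alad-201 held 95.8% in library 1 and 34.6% in library 2, while the noncoding Alad-203 held 4.23% and 42.8%. The coding Alad-202 held 0% and 22.6%. At 230 and 195 counts for the whole gene, these shares are estimates from few reads.

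Uros was led in both libraries by the retained-intron Uros-206, with 42.3% in library 1 and 35.6% in library 2. Its coding Uros-203 held 25.8% and 25.03%, and the coding Uros-204 held 22.5% and 0%. Urod was led in both by the coding Urod-201, with 59.0% and 74.0%, and the remainder of its TPM lay on retained-intron transcripts. By the deposited posterior mean, Urod-201 held 50.9% and 57.9%. On that measure Urod-210, a noncoding transcript with 0 counts and effective lengths of 7.2 and 5 bases, held 10.4% and 15.8%. Cpox and Fech have 1 transcript each in the annotation of the files, Cpox-201 and Fech-201, so their levels carry no such division.

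The coding share of each gene was averaged over the libraries. Over the 5 members with several transcripts and 1 TPM or more in both libraries, the median of these means was 61.0%. It was 89.9% over 6792 nuclear protein-coding genes chosen in the same way. Within library 1 and library 2, the medians were 57.5% and 57.9% for the members, against 90.8% and 91.5% for those genes. A mean coding share under 50% was found for 1 of the 5, Ppox, against 12.6% of those genes. Counted on coding transcripts alone, the order of mean TPM was Alas1 at 9.61, Urod at 6.66, Cpox at 5.04, Fech at 4.34, Uros at 1.82, Alad at 1.49, Ppox at 1.16 and Alas2 at 0.275. Ppox thus moved below Uros and Alad, although the library values of Alad overlapped those of both Uros and Ppox on this scale. Alas1 stayed highest and Alas2 lowest in each library.

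**Figure D3:**
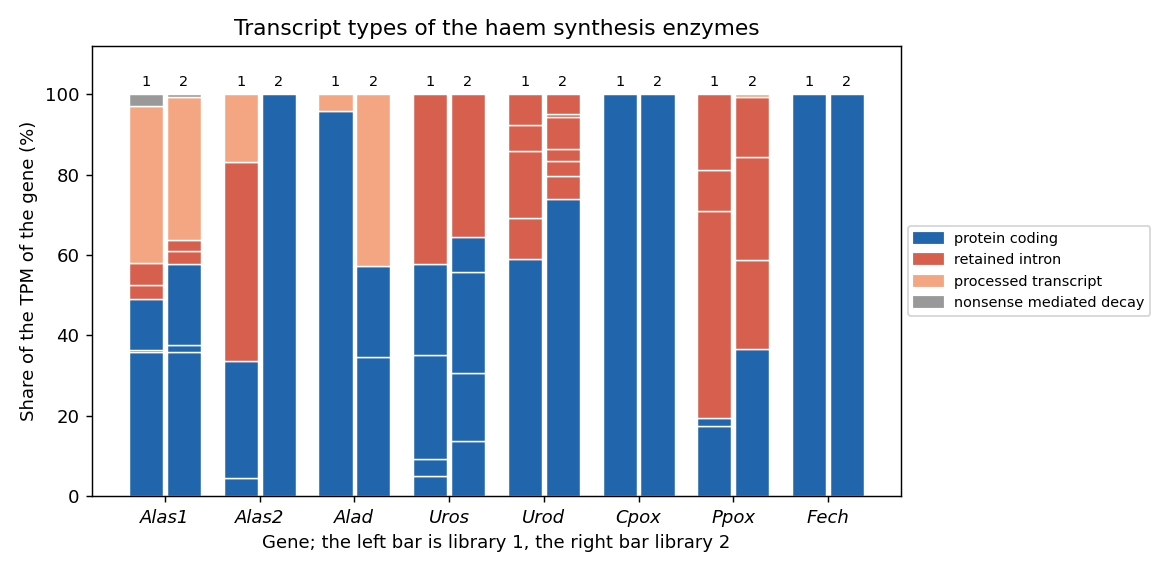
Share of the TPM of each gene by transcript in library 1 (left bar) and library 2 (right bar), with colours for the annotated transcript type and white lines between transcripts. The coding share is 100% for Cpox and Fech and 19.4% and 36.4% for Ppox.

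The libraries were then compared with each other, gene by gene, by an exact binomial test on counts scaled to library size, adjusted by Benjamini-Hochberg over 14283 genes. This test holds counting error alone. It passed 65.1% of all genes tested, 32.2% being higher in library 1 and 32.9% in library 2, and 13.8% passed at a 2-fold ratio or more. Of the 8 members, all of which were tested, 6 were higher in library 1 and 1, Alas1, was higher in library 2. A share of 7 in 8 stands beside that background of 65.1%, and 6 in 8 beside 32.2%.

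Counted over all transcripts, Alas2 had the largest ratio of the members. Alas2 was higher in library 1 by a log2 ratio of 2.06 (adjusted p = 5.33e-12, exact binomial test). It was the sole member at a 2-fold ratio or more, a size reached as higher in library 1 by 7.43% of all genes tested. With biological variation allowed for, by edgeR's exact test at an assumed coefficient of variation (BCV) of 0.1, Alas2 was the sole member that passed (adjusted p = 4.39e-07), where 17.5% of all genes passed, 9.79% as higher in library 1. At an assumed BCV of 0.2 it passed again (edgeR's exact test, adjusted p = 0.00187), where 8.17% of all genes passed, 4.34% as higher in library 1.

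The other members lay within a log2 ratio of 0.5 of equality. Library 1 was higher by 0.48 for Alad (adjusted p = 0.00134), 0.47 for Uros (1.38e-06), 0.44 for Cpox (1.12e-16), 0.26 for Urod (7.41e-05) and 0.15 for Fech (0.0159), each by the exact binomial test. Alas1 had a log2 ratio of -0.13 (adjusted p = 0.000266, same exact test), and Ppox one of -0.11 that did not pass (adjusted p = 0.181, same exact test). At the assumed BCV of 0.1 none of these 7 passed, with adjusted p from 0.151 for Uros to 0.86 for Ppox in edgeR's exact test. The median log2 ratio over the 8 members was 0.35, against 0.00 over all genes tested. Ppox differed in direction by TPM, at 1.13-fold higher in library 1, with an effective length 1.26 times as long in library 2.

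On coding transcripts alone, an alternative added after the data were seen, Alad had 215 counts in library 1 and 90 in library 2. Its log2 ratio was then 1.51, with an adjusted p of 1.85e-17 by the exact binomial test. Alas2, with 70 coding counts in library 1 and 26 in library 2, had a log2 ratio of 1.67 (adjusted p = 2.74e-07, same exact test), so both passed at 2-fold or more and lay close together. Ppox then passed as higher in library 2, with 133 coding counts in library 1 and 263 in library 2. Its log2 ratio was -0.73, and the same exact test gave an adjusted p of 4.16e-06. Both values rest on how reads were assigned among overlapping transcripts.

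Erythroid markers were also higher in library 1. Of 17 erythroid markers, 16 were higher in library 1 and none in library 2 by the exact binomial test, 9 of them at 2-fold or more, with a median log2 ratio of 1.0. Over all genes, 32.2% were higher in library 1 and 7.43% at 2-fold or more. At an assumed BCV of 0.1, 15 of the 17 passed edgeR's exact test, beside 17.5% of all genes. At 0.2, 4 passed, beside 8.17% of all genes. Summed over the list, library 1 held 55.0 TPM and library 2 held 30.5 TPM, and none was at 0 counts in both. The marker that did not pass was Epor, the erythropoietin receptor gene, with 11 and 24 counts. All 4 globin genes were higher in library 1 by the exact binomial test, with summed levels of 104 TPM in library 1 and 51.4 TPM in library 2. At assumed BCVs of 0.1 and 0.2, 3 and 1 of the globin genes passed edgeR's exact test, beside 17.5% and 8.17% of all genes. Hba-a2 and Hba-a1 had the largest log2 ratios, 1.4 and 1.03, and share reads as near-identical copies. The part of red cell precursors in the Alas2 difference was not tested.

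Among list genes that averaged at least 50 counts, the ratio nearest to that of Alas2 belonged to Klf1, the erythroid transcription factor, a marker and a regulator here, whose counts were 283 and 75 (2.15 on the log2 scale). The alpha globin gene Hba-a2, also among the 3 nearest, had 2221 and 992 counts (1.4). Nearness was the difference in log2 ratio over 2 libraries, which is a single contrast. The most abundant erythroid markers, Car2, Tfrc and Car1, had log2 ratios of 0.93, 0.45 and 1.09. Kel, a blood group antigen gene, had one of 1.36. Alas2 lay above every erythroid marker but Klf1, and the other 7 enzymes lay below the erythroid median of 1.0, all on counts over all transcripts.

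**Figure D4:**
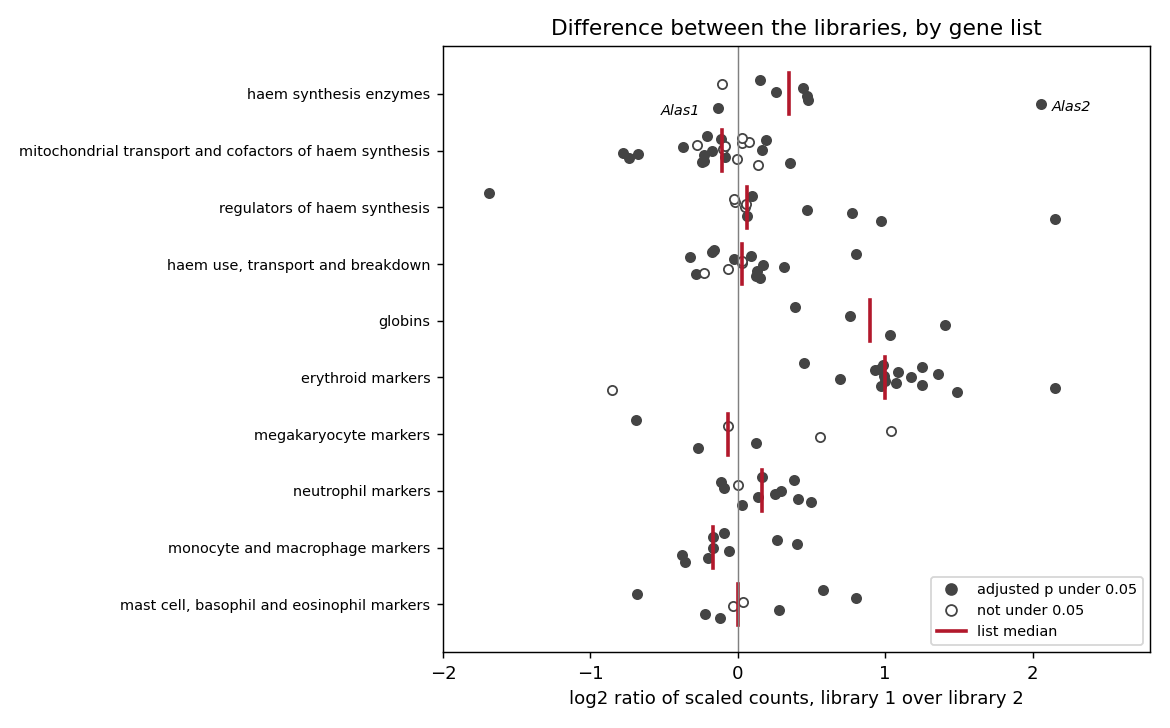
Log2 ratio of scaled counts, library 1 over library 2, for each tested gene of the lists with counts in both libraries, filled where the exact binomial test passed, with red lines for list medians. Alas2 lies at 2.06, the median of the 8 enzymes at 0.35 and that of the erythroid markers at 1.0.

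Among genes that serve the pathway, the share that passed was near that of all genes. The list of mitochondrial carriers, iron-sulphur cluster genes and other cofactors held 22 genes, with 3 of them passing the exact binomial test as higher in library 1 and 11 as higher in library 2, none at 2-fold, and a median log2 ratio of -0.11. Together 14 of the 22 passed, beside 65.1% of all genes, and the 11 stand beside 32.9%. At assumed BCVs of 0.1 and 0.2, 3 and 0 of them passed edgeR's exact test, beside 17.5% and 8.17% of all genes. Slc25a38, a mitochondrial carrier of glycine, stood at 8.0 TPM in library 1 and 7.3 TPM in library 2. Slc25a37, mitoferrin 1, the iron carrier of red cell precursors, stood at 3.6 and 3.0 TPM, and Slc25a28, mitoferrin 2, the carrier of other tissues, at 5.28 and 6.56 TPM. Slc25a37 passed as higher in library 1 (log2 ratio 0.35) and Slc25a28 as higher in library 2 (-0.24); they were picked from the list after their values were seen.

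The highest of these 22 included the sorting nexin gene Snx3 at 30.8 ± 2.18 TPM, Tmem14c, needed for porphyrin transport in red cell precursors, at 29.8 ± 4.5, and Sucla2, a subunit of the enzyme that interconverts succinyl-CoA and succinate, at 28.0 ± 1.38 (SD, n = 2). These 3 means stood above that of Alas1, the highest enzyme. The list medians, 6.5 TPM in library 1 and 7.08 TPM in library 2, stood above the 4.48 and 4.095 TPM of the enzymes.

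Of 12 regulators, 11 were tested, and 6 were higher in library 1 and 1 in library 2, so that 7 of 11 passed beside 65.1% of all genes. At assumed BCVs of 0.1 and 0.2, 4 and 1 of them passed edgeR's exact test, beside 17.5% and 8.17% of all genes. The erythroid factor genes Klf1, Gata1 (log2 ratio 0.97) and Zfpm1 (0.77) were higher in library 1 by the exact binomial test. Nr1d1, a haem-binding nuclear receptor gene, was higher in library 2 from only 7 and 28 counts. Nfe2, Bach1, Nrf1 and Eif2ak1, which include a haem-sensing repressor (Bach1) and a haem-regulated kinase (Eif2ak1), were the highest at 60.9 ± 1.35, 24.6 ± 0.354, 20.2 ± 1.27 and 14.005 ± 0.771 TPM and lay within a log2 ratio of 0.1 between the libraries. Ppargc1a, a coactivator that raises Alas1 in liver, had 9 counts in library 1 and 0 in library 2.

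The highest genes of haem use stood well above the enzymes. Cybb, the haem-bearing subunit of the phagocyte oxidase, stood at 280 TPM in library 1 and 294 TPM in library 2. Its partner Cyba stood at 67.1 and 89.1 TPM, and Mpo, the haem enzyme of neutrophil granules, at 68.0 and 64.9 TPM. Cycs, cytochrome c, stood at 22.9 and 28.7 TPM. Of the 17 genes of haem use, transport and breakdown, 16 were tested, 7 being higher in library 1 and 5 in library 2, none at 2-fold, beside the 32.2% and 32.9% of all genes. At the assumed BCV of 0.1, 1 of them passed, beside 17.5% of all genes. The gene that passed was Epx, the eosinophil peroxidase gene. Epx lies outside the naming rule and was picked after its values were seen. Epx had 878 counts in library 1 and 594 in library 2, at 4.85 and 4.46 TPM. Its log2 ratio was 0.80, with an adjusted p of 0.00252 by edgeR's exact test at that BCV. It is also one of the mast cell, basophil and eosinophil markers. For Flvcr2, a transporter gene, no read was counted in either library; 3 counts would be worth 0.00933 TPM in library 1 and 0.00823 TPM in library 2. Cybb, Cyba, Mpo and Cycs, the 4 highest genes of this list, stood above all 8 enzymes of the pathway in each library.

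Most defining markers went against the label, so these are called the libraries labelled megakaryocyte. Among 16 megakaryocyte markers, 13 were below 1 TPM in each library and 4 had 0 counts, Gp5, Gp6 and Mpig6b among them, with Gp1bb at 0 and 35. The markers not below 1 TPM were Itgb3 at 5.92 TPM in library 1 and 5.66 TPM in library 2, Itga2b at 3.26 and 4.89, and Clec1b at 1.12 and 1.04. Summed over the 16 markers, library 1 held 10.9 TPM and library 2 held 12.8 TPM, most of it in these genes. Neutrophil markers had a median of 396 TPM in library 1 and 337 TPM in library 2, monocyte and macrophage markers one of 152 and 211 TPM, and mast cell, basophil and eosinophil markers one of 20.1 and 21.4 TPM. Library 1 summed to 42703213 expected counts and library 2 to 50532821.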

How the data were processed

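Total RNA was measured in 2 libraries. Reads were mapped to mm10 with GENCODE M4, per a deposited text file. Aligner, quantifier and strand setting are not given in the sources used here. In their tables the authors deposited expected counts per gene and transcript (estimated, not normalized), TPM over all 69691 rows, FPKM, the percent of a gene's TPM per transcript, and the bounds of a TPM interval (a signal of unstated level). Symbols, types and coordinates came from GENCODE M21 by gene ID (42462 of 43346 matched). Promoter sequences came from RefSeq (GRCm38.p6).

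The ratios and log2 values were computed here; none was deposited. Expected counts were rounded. Genes averaging at least 10 counts were scaled by TMM (edgeR 4.0.16, R 4.3.3) and compared by an exact, two-sided binomial test in scipy 1.17.1 and Benjamini-Hochberg adjustment at 0.05; 0.5 was added to counts before log2. The scripts were tested on simulated data. Size factors from DESeq2 1.42.0, other count filters and edgeR's exact test at assumed BCVs of 0.1 and 0.2 were alternatives. Counting limits for genes at 0 used 3 counts.

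The members and lists were chosen with earlier results of these data known. The naming rule took all members, up to 4 highest genes of each list, up to 3 with the largest called ratio of 2-fold or more, all at 0 in both libraries, and transcripts at 20% or more; of the neutrophil, monocyte and mast cell lists medians alone are given. A few genes named by it are left out of the text but kept in list counts.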

Additional observations from a re-analysis of the deposited data

How the results depend on the processing

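The choice of error model decided most calls between the libraries. With counting error alone 9298 genes (65.1%) passed, 7 members and 79 other list genes. At an assumed BCV of 0.1 in edgeR's exact test, 2499 genes (17.5%) passed, 1 member and 27 list genes. At 0.2, 1167 genes (8.17%) passed, 1 member and 6 list genes. The member that passed was Alas2. These 3 counts stayed within 1.5 times with DESeq2 size factors, summed counts as library sizes and the other count filters. They also did so with nuclear protein-coding genes alone and with coding transcripts alone. In none of these settings did a member change the direction of its count ratio. Alas2 fell below a minimum mean count of 100 and was not tested there.

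The median member level was 4.29 TPM. It was 17.0 when TPM was rescaled over nuclear protein-coding genes and 9.87 as FPKM, both on another scale by construction. By single library it ranged from 4.095 to 4.48 TPM. The rescaling also moved the libraries against each other, as nuclear protein-coding genes held 240043 TPM in library 1 and 267991 TPM in library 2. Alas1 was higher in library 2 by TPM but higher in library 1 after rescaling, at 72.4 and 68.9. The mean log2 of Alas1 over Alas2, 5.48, ranged from 3.82 to 7.15 by single library. For the 6 members with several transcripts, the median of coding shares averaged over the libraries was 63.7%, and 53.8% by posterior mean. Medians within a single library were 53.4% in library 1 and 61.1% in library 2, both below the median of the averages. No paired analysis was possible because there was a single group. With 26 counts of Alas2 in library 2, depth limits every value that rests on them.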

Other observations

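Cox15, which makes the haem A of cytochrome oxidase and was picked after its values were seen, differed more by TPM than by counts. It had 4.66 TPM in library 1 and 2.39 TPM in library 2, from 1187 and 1245 unscaled counts. Scaled to library size, its counts were 1.13-fold higher in library 1, a log2 ratio of 0.17 that passed the exact binomial test at a Benjamini-Hochberg adjusted p of 0.0062.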
